A study of Mus musculus with 2 samples.

Results

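The 36 genes described here are genes that proliferating cells use to copy their DNA and to package it with new histones. They were chosen by symbol from a list of replication and S-phase histone genes. The rule holds no measured value, but earlier results of these data were known when it was made. All 36 were found among the 31053 genes of the count tables. The members were sorted by role into 8 licensing genes (*Mcm2* to *Mcm7*, *Cdc6* and *Cdt1*), 2 genes of helicase activation, 5 of DNA synthesis, 5 of nucleotide supply, 5 of chromatin assembly and histone mRNA handling, 3 of fork protection, cohesion and repair, 3 of G1/S control, and 5 histone genes (*Hist1h1a*, *Hist1h1b*, *Hist1h1e*, *Hist1h2ae* and *Hist1h2ap*). Single-cell RNA sequencing was run on primary vascular smooth muscle cells (VSMCs) of the aorta of wildtype C57BL6/N mice, as 2 libraries called biological replicates 1 and 2. The cells were studied on day 5 of culture in full medium, so that there is 1 condition and no untreated group. A cell preparation came from several pooled thoracic aortae, and primary cultures of this kind still hold other cells of the vessel wall. The 10x Genomics method marks every captured mRNA with a cell barcode and a molecular tag (unique molecular identifier, UMI), and counts molecules from their 3′ ends.

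The tables held 127949633 UMIs in replicate 1 and 132561822 in replicate 2. A barcode was taken as a cell from 300 genes and 3000 UMIs upward if mitochondrial transcripts made up less than 20% of its UMIs, which gave 4866 and 6824 cells with medians of 22234.5 and 16310 UMIs. Of these barcodes 9 occurred in both libraries, where 4.89 would be shared at random. Endothelial cells, with at least 2 UMIs in at least 2 of *Pecam1*, *Cdh5*, *Cldn5* and *Gja4*, numbered 102 and 141. The other cells were Myh11-high with at least 5 UMIs of *Myh11*, the smooth muscle myosin heavy chain (473 and 879 cells), or Myh11-low with at most 1 (3954 and 5362 cells). The remaining 337 and 442 cells had 2 to 4 *Myh11* UMIs and entered no class. A threshold in UMIs favours deep cells, and median depth was 25667 and 21018 UMIs in Myh11-high, 21979 and 15639.5 in Myh11-low and 14629 and 10250 in endothelial cells. The classes were checked against markers. *Acta2*, smooth muscle actin, which chose no class, reached 14321 and 14104 counts per 1000000 UMIs (CPM) in Myh11-high against 3801 and 2123 in Myh11-low cells. The summed level of 9 endothelial markers, 4 of which chose the endothelial cells, was 4172 and 4589 CPM in endothelial cells, 20.4 and 17.6 CPM in Myh11-high and 9.97 and 9.40 CPM in Myh11-low cells. The 6 macrophage markers summed to 13.2 and 7.35 CPM in Myh11-low cells. Not every list separated the classes. The 5 modulated or fibroblast markers summed to 2646 and 2130 CPM in Myh11-low and 2361 and 1563 CPM in Myh11-high cells, which overlapped. Endothelial cells held 2823 and 1990 CPM of the 8 contractile markers, against 6138 and 3372 CPM in Myh11-low cells, and the source was not tested. In bulk sums such as these, more cells that express a gene and more RNA per cell cannot be told apart. CPM are relative to all UMIs of a library and class, and a 3′ count is not divided by gene length, so that levels are compared between classes and not between genes.

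Replication begins with licensing in G1, when CDC6 and CDT1 help to load the MCM2-7 complex, the core of the replicative helicase, onto origins. In S phase CDC45 and the GINS complex turn loaded MCM2-7 into a moving helicase, primase and polymerases copy the strands, and nucleotide enzymes supply the building blocks. New DNA is packed by histones whose replication-dependent mRNAs end in a stem loop bound by SLBP and mostly lack a poly(A) tail, so that an oligo(dT) method captures only a part of them. Cyclin E and the E2F transcription factors drive entry into S phase, and VSMCs, which rarely divide in the healthy vessel wall, enter the cycle in culture.

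Short promoter windows were read for the members because genes of this pathway are known for E2F sites and histone genes for CCAAT boxes. Promoters of 300 bases around the RefSeq start were present for 31 members in sequences of GRCm38.p6. The RefSeq and GENCODE starts lay furthest apart for *Mcm7* (539 bases), *E2f1* (466), *Cdc6* (350), *Dut* (325) and *Fen1* (224). A match, or its absence, in these promoters depends on the start used. E2F octamers (TTTCCCGC, TTTCGCGC, TTTGCCGC or TTTGGCGC, on either strand) were found in 742 of 32817 promoters (2.26%), and in 8 of the 31 members' promoters. Of these 8, 6 were among the 7 licensing promoters, 1 among the 5 synthesis and 1 among the 2 fork protection, cohesion and repair promoters, and none belonged to another role, histones included. CCAAT on either strand was found in 12270 promoters (37.4%) and in 21 of the 31 members' promoters, among them 5 of the 7 licensing and all 5 histone promoters. The windows below show 3 promoters with E2F octamers and 3 histone promoters, each of 190 bases that end before the more upstream of the RefSeq and GENCODE starts, written 5′ to 3′ on the strand of the gene. Capitals mark E2F octamers and CCAAT boxes, and overlapping octamers on both strands form 1 run, as in TTTCGCGCCAAA. A match is a description of the letters and not a site.
Mcm5 promoter, chr8:75109319-75109508, plus strand: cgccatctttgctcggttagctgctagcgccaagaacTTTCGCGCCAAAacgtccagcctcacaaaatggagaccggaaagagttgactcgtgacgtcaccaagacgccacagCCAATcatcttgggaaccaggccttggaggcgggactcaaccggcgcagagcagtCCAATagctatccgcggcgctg
Mcm6 promoter, chr1:128359706-128359895, minus strand: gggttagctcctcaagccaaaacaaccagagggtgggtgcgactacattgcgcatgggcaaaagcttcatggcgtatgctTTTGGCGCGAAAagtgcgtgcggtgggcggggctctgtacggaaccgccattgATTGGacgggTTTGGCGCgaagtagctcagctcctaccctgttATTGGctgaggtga
Pola1 promoter, chrX:93632156-93632345, minus strand: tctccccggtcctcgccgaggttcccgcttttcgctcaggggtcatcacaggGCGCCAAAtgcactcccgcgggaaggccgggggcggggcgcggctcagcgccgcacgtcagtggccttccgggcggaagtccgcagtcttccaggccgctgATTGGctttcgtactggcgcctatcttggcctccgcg
Hist1h1a promoter, chr13:23763476-23763665, plus strand: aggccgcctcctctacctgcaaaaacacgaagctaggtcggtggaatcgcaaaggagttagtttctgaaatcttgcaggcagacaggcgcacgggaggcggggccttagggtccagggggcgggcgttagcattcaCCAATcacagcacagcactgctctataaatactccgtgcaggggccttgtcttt
Hist1h1b promoter, chr13:21780626-21780815, minus strand: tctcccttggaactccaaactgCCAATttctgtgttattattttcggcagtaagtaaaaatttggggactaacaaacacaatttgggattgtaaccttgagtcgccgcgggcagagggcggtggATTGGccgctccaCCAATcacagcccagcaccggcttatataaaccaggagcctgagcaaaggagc
Hist1h2ap promoter, chr13:21833508-21833697, minus strand: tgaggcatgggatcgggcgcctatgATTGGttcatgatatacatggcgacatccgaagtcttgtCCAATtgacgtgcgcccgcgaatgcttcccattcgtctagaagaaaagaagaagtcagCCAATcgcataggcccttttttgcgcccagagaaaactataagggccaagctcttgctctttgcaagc
The *Mcm5* window held 2 E2F octamers and 2 CCAAT boxes, and the *Mcm6* window held 3 and 2. The *Pola1* window held 1 of each, and the histone windows held 1 CCAAT box for *Hist1h1a* and 3 each for *Hist1h1b* and *Hist1h2ap*. All 5 histone members lie on chromosome 13, between positions 21779883 and 23764406 of GRCm38.

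Licensing and histone genes differed little between the 3 classes. The 8 licensing genes summed to 239.9 and 231 CPM in Myh11-low cells, to 249 and 313 CPM in Myh11-high cells and to 292 and 319 CPM in endothelial cells. The Myh11-low sums lay below those of both other classes, and the sums of Myh11-high and endothelial cells overlapped. In the free RNA of near-empty droplets the same genes summed to 219 and 226 CPM. The 5 histone genes summed to 221 and 271 CPM, 197 and 288 CPM, and 272 and 269.6 CPM in the same order, so that all 3 classes overlapped. Single members covered a wide range in Myh11-low cells, from *Cdc6* with 6.44 and 6.91 CPM to *Rrm1*, the large subunit of ribonucleotide reductase, with 130.2 and 104 CPM, and *Hist1h1b*, a linker histone, with 110.5 and 168 CPM.

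**Figure D1:**
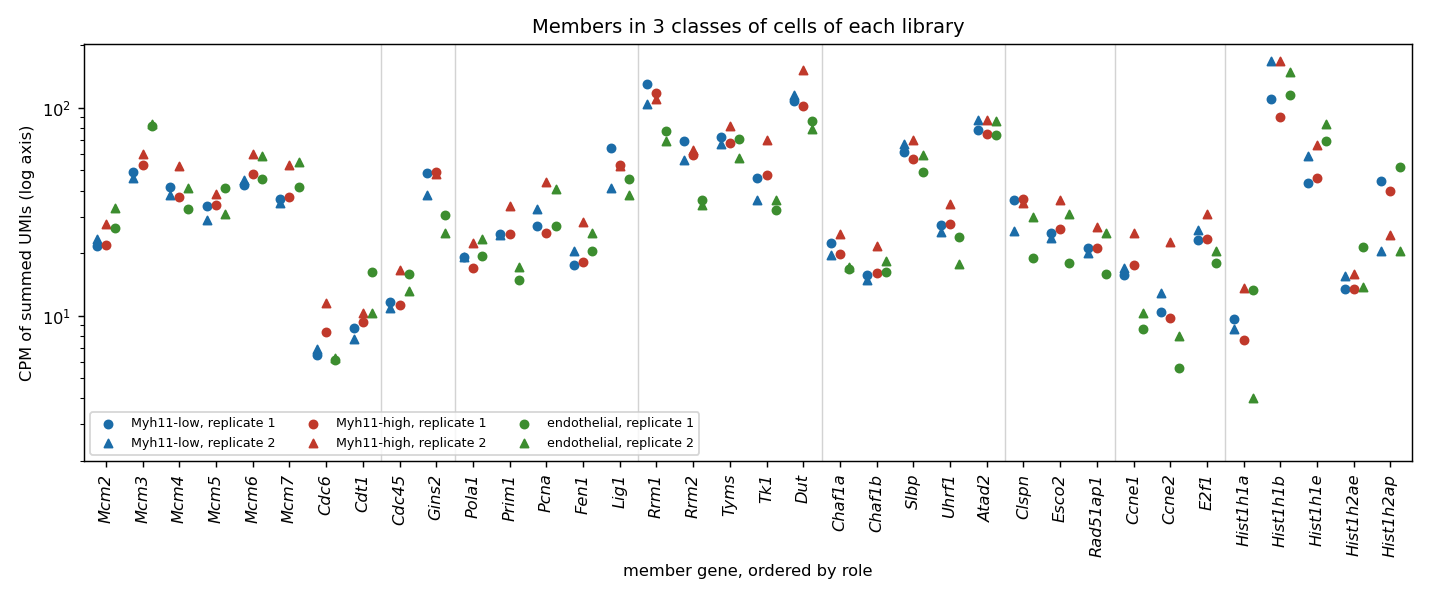
CPM (y axis, log scale) of each of the 36 members (x axis, by role) in Myh11-low, Myh11-high and endothelial cells, with 1 point per library. The points of the 3 classes lie close together for most members, and in Myh11-low cells the gap between the libraries is widest for *Hist1h2ap* (44.4 and 20.5 CPM).

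No member passed the test between Myh11-low and Myh11-high cells, although contractile genes separated these classes. With edgeR's quasi-likelihood test on the class sums, 0 of the 36 members were called at an adjusted p under 0.05, where 0.424% of all 13221 genes were called higher in Myh11-low cells and 1.84% lower. At an unadjusted p under 0.05, 2 members were lower in Myh11-low cells. The count of calls at an adjusted p was also 0 with the library as a block, where 7.44% of all genes were called higher and 8.83% lower. It was 0 with DESeq2 too, where 2.96% and 5.82% of all genes were called. At an unadjusted p, 6 members were lower with the block and 3 with DESeq2. No share over all genes is given at an unadjusted p, so these counts are not read as particular to the members. The log2 differences of the 36 members were negative for 35 and had a median of -0.26, while the median over all genes tested was 0.02. Without TMM normalisation *Rrm1*, *Rrm2*, *Slbp*, *Atad2* and *Hist1h2ap* turned positive.

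Both Myh11-high values lay above both Myh11-low values for 12 members, for no member was it the other way round, and 24 members overlapped. Over all genes tested, 18.1% lay wholly lower in Myh11-low cells and 30.6% wholly higher. The direction came mainly from replicate 2, in which 36 of 36 members were higher in Myh11-high cells, against 18 of 36 in replicate 1. These counts use CPM without TMM. The share over all genes is not given for them, so they are not read as particular to the members. *Cdc6*, a loader of the MCM complex, had the smallest adjusted p. It stood at 6.44 and 6.91 CPM in Myh11-low and 8.37 and 11.5 CPM in Myh11-high cells, a log2 difference of -0.63 ± 0.22 (SE, n = 2 libraries) with an edgeR adjusted p of 0.224. The groups did not overlap for *Cdc6*, yet the difference did not hold up over all genes, nor with the block (edgeR adjusted p = 0.0534).

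*Tk1*, thymidine kinase, shows how far the libraries disagreed. In Myh11-low cells it reached 45.9 and 36.2 CPM, and in Myh11-high cells 47.7 and 69.9 CPM, so that the groups did not overlap but differed by -0.06 on the log2 scale in replicate 1 and by -0.95 in replicate 2. *Ccne2*, which encodes cyclin E2, had 10.4 and 12.9 CPM in Myh11-low and 9.79 and 22.5 CPM in Myh11-high cells, and these values overlapped. *Hist1h1b* stood at 110.5 and 168 CPM against 89.9 and 168 CPM, a log2 difference of 0.05 ± 0.33, and was the only member with a positive sign. By role, the median log2 difference was -0.31 for licensing, -0.44 for G1/S control, -0.16 for nucleotide supply and -0.07 for histone genes. Of 18 mitosis genes, 16 had a negative sign, none was called, and 3 were called lower with the block.

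**Figure D2:**
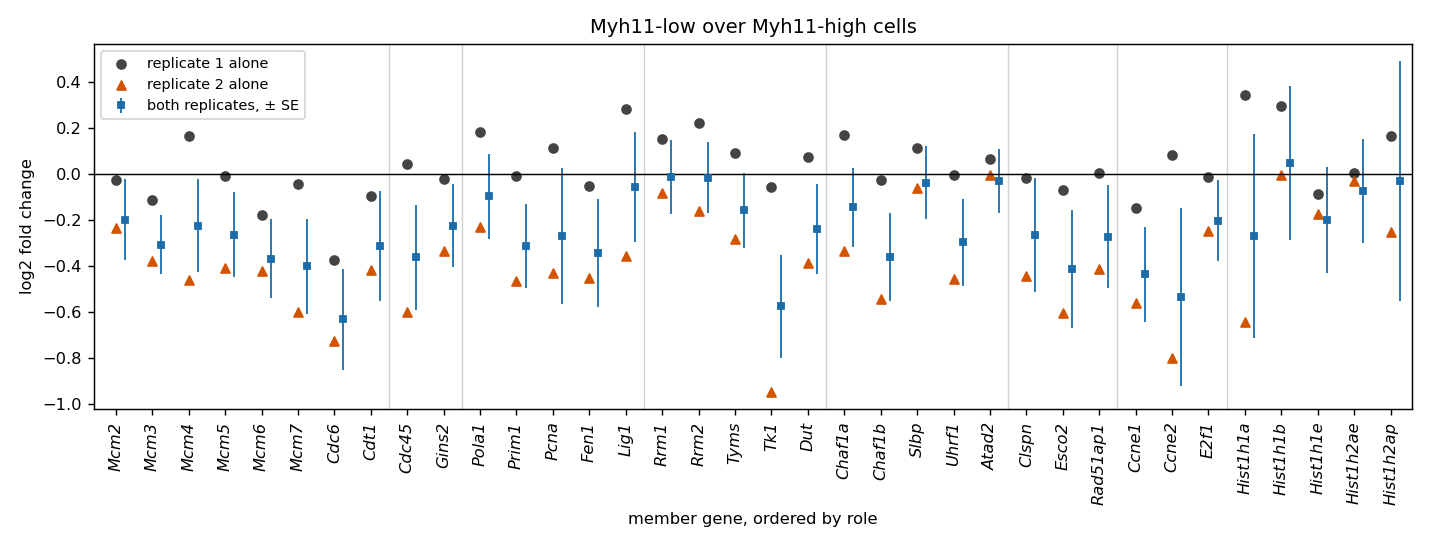
Log2 fold change in Myh11-low over Myh11-high cells (y axis) for each member (x axis, by role), in each replicate alone and, as squares with SE, in the edgeR fit of both. In replicate 2 all 36 members lie below 0, in replicate 1 only 18 do. Values of each replicate alone are without TMM, and no share over all genes is given for these counts.

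In endothelial cells 1 member was higher and 2 were lower than in Myh11-low cells. *Mcm3*, a subunit of the MCM helicase, was listed at 82.0 and 83.4 CPM in endothelial and at 49.0 and 46.1 CPM in Myh11-low cells. Both endothelial values stood clear of the Myh11-low values, and *Mcm3* was higher by 0.71 ± 0.13 on the log2 scale (edgeR adjusted p = 0.0204). *Rrm1* had 77.5 and 69.1 CPM in endothelial against 130.2 and 104 CPM in Myh11-low cells, and *Rrm2*, the small subunit of ribonucleotide reductase, had 36.2 and 34.3 against 69.2 and 56.2 CPM. Both genes were lower in each endothelial sum than in either Myh11-low sum, with log2 differences of -0.77 ± 0.17 and -0.93 ± 0.17 (edgeR adjusted p = 0.0317 and 0.0179). Without a filter on low counts the edgeR adjusted p of *Rrm1* was 0.0593, and after thinning to 3000 UMIs per cell that of *Rrm2* was 0.0535, so that each call was lost under 1 alternative. The background is 9.73% of all 13221 genes called higher and 6.52% called lower in endothelial cells, so that 3 of 36 members is a smaller share than the 16.2% of all genes.

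With the library as a block, 2 members were called higher and 5 lower, against 31.1% of all genes (15.6% in each direction). The added calls were *Hist1h1e*, a linker histone (log2 difference 0.50, edgeR adjusted p 0.0188 with and 0.214 without the block), and on the lower side *Gins2* (0.0138 and 0.0592), the primase subunit *Prim1* (0.0371 and 0.072) and cyclin E1, *Ccne1* (0.0273 and 0.0665). *Gins2*, of the GINS complex, stood at 30.6 and 25.1 CPM in endothelial and 48.4 and 37.9 CPM in Myh11-low cells, without overlap. The values of 9 members lay wholly above and of 13 wholly below those of Myh11-low cells, and 14 overlapped, where 34.7% and 28.9% of all genes lay wholly above and below. The median log2 difference over the members was -0.16, against -0.03 over all genes. All 18 mitosis genes had a negative sign and 3 were called lower, among them *Hmmr* (-1.13) and the spindle factor *Tpx2* (-0.93). The part of the mitosis genes' lower levels in the values of the members was not tested.

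Members were found in a minority of cells for most genes. Over the 36 members, the median share of cells with a UMI was 29.3% and 24.6% in Myh11-low, 34.1% and 38.3% in Myh11-high and 23.0% and 16.3% in endothelial cells. The classes differ in depth, and after thinning each cell to 3000 UMIs, with no cell left out, the medians were 7.05% and 6.47%, 7.07% and 8.84%, and 5.85% and 5.50%. In Myh11-low cells the shares ran from 9.99% for *Cdc6* in replicate 1 and 8.22% for *Hist1h1a* in replicate 2 to 68.7% and 59.8% for *Dut*, which hydrolyses dUTP. In endothelial cells the lowest were *Cdc6* (6.86%) and *Hist1h1a* (4.26%), and the highest *Mcm3* (54.9%) and *Hist1h1e* (46.1%).

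Free RNA in the droplets also gives UMIs. At an estimated free-RNA part of 4.69% and 5.76% of a cell's UMIs, it alone would give the members shares of up to 10.9% and 11.1% in Myh11-low cells. Each member exceeded its own free-RNA share in all 3 classes of both libraries, also by the lower end of the exact binomial 95% interval, which covers counting error only. For comparison, *Pecam1*, which smooth muscle cells lack, had a UMI in 0.961% and 0.783% of Myh11-low cells, and *Myh11* had a UMI in 6.86% and 2.84% of endothelial cells. *Pecam1* is among the genes that chose the endothelial cells and gave the free-RNA estimate, so its share is no independent measure. *Gja4*, another of these genes, stood at 3.44 and 4.43 CPM in Myh11-high and 0.429 and 0.373 CPM in Myh11-low cells. A Myh11-low cell held a median of 7 and 6 of the 36 members, a Myh11-high cell 8 and 9, and an endothelial cell 5 and 4. Across cells, summed licensing and histone CPM had a Spearman correlation of 0.478 and 0.483 in Myh11-low cells (n = 3954 and 5362). It was 0.491 and 0.616 in Myh11-high cells and 0.260 and 0.228 in endothelial cells, where cells of 1 library share its depth and free RNA. The classes differ in depth and in number of cells, and no correlation was computed after thinning. The correlations are therefore not compared between classes.

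The members were then followed through the Myh11-low cells, which hold most of the UMIs. Within each library and each 10% of cells ranked by total UMIs, the 25% of cells with the largest share of UMIs from the 5 histone genes, and at least 2 such UMIs, formed the histone-rich set. The mitosis-rich set was formed likewise from 18 mitosis genes such as *Ccnb1*, *Cdc20*, *Plk1* and *Cenpe*. Cells of the first set alone are called histone-high (461 and 530 cells) and of the second alone mitosis-high (688 and 729), and 302 and 611 cells fell in both sets and 2503 and 3492 in neither. These groups are ranges of a score and not cell types: 677 and 1120 cells, 17.1% and 20.9%, lay within 1 UMI of the histone threshold, and 52.5% and 47.9% of cells had no histone UMI. The histone and mitosis genes define the groups and are given without a test, and the other 31 members were tested. Genes whose levels follow histone or mitosis UMIs across cells were bound to differ between groups sorted by these UMIs. Calls between the groups are therefore a description and no independent support.

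The libraries differed in these groups. Histone-high cells had medians of 28 mitosis and 18 histone UMIs in replicate 1 but 3 and 5 in replicate 2, at median depths of 27673 and 16259 UMIs. Cells in both sets were more alike, with medians of 72.5 and 62 mitosis and 19 and 21 histone UMIs. Summed contractile markers differed less between the groups than between the libraries, with 6065 to 6366 CPM in replicate 1 and 3193 to 3632 CPM in replicate 2. The 6 macrophage markers summed to 15.4 and 5.93 CPM in histone-high, 3.998 and 3.769 CPM in mitosis-high, 28.2 and 3.93 CPM in both and 13.4 and 8.97 CPM in neither, and their part in the results was not tested.

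All 31 members other than histones were higher in histone-high cells than in cells of neither set, and their values did not overlap. This direction follows in part from how the cells were sorted. Of all 12607 genes 3.97% were called higher and 0.0397% lower by edgeR, and 21.2% lay wholly above and 13.8% wholly below. The members' adjusted p-values were 0.0018 to 0.0385, the block and DESeq2 also called all 31 (all genes: 11.6% higher and 5.82% lower, and 5.4% and 0.135%), and the median log2 difference was 2.53 against -0.04 over all genes. Licensing genes summed to 617 and 560 CPM in histone-high cells and to 115 and 91.0 CPM in neither, with log2 differences from 2.16 to 2.75 for the 8 genes.

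Fork protection, cohesion and repair genes had the widest gaps. *Esco2*, which acetylates cohesin during S phase, stood at 79.0 and 46.2 CPM in histone-high cells and at 2.07 and 1.18 CPM in neither, a log2 difference of 5.23 ± 0.40. *Rad51ap1*, a DNA repair factor, was higher by 3.79 ± 0.31, and *Clspn*, the checkpoint adaptor claspin, by 3.59 ± 0.46. *Tk1* (3.36 ± 0.47), the helicase cofactor *Cdc45* (3.35 ± 0.28), the chromatin assembly subunit *Chaf1b* (3.20 ± 0.20) and *Ccne2* (3.15 ± 0.39) followed.

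The smallest log2 differences were those of *E2f1* (1.52 ± 0.15), *Dut* (1.62 ± 0.15), *Rrm1* (1.77 ± 0.29) and *Slbp* (1.82 ± 0.15). *E2f1*, the transcription factor, was listed at 50.7 and 48.9 CPM against 16.3 and 17.8 CPM, and *Slbp* at 149.1 and 140.3 CPM against 39.2 and 40.9 CPM. Both histone-high values lay above both values of neither set for each of these genes. The histone genes, which chose the cells, summed to 922 and 679 CPM in histone-high cells and 20.97 and 32.4 CPM in neither.

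**Figure D3:**
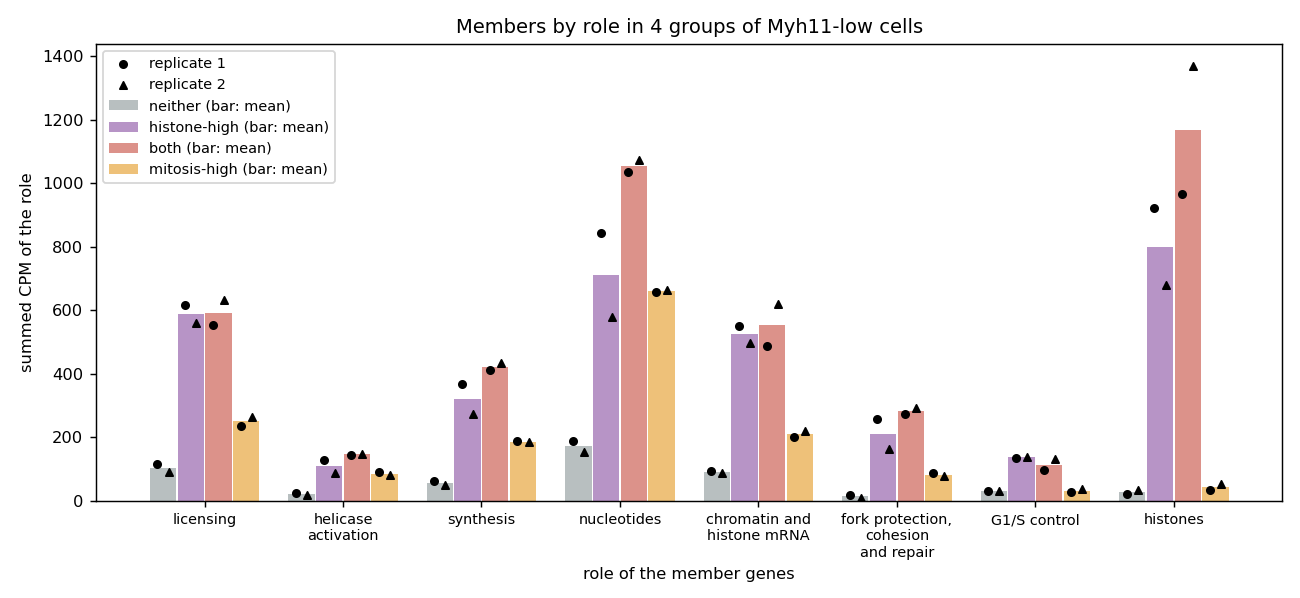
Summed CPM of the members of each role (y axis, from 0) in the 4 groups of Myh11-low cells, as bars for the mean and 1 point per library. Licensing and G1/S control genes are highest in the 2 groups with many histone UMIs, while nucleotide genes are also high in mitosis-high cells (658 and 662 CPM, against 187 and 154 CPM in neither).

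*Ccne2*, *Cdc6* and *Ccne1* had the largest gaps between histone-high and mitosis-high cells. Of the 31 members 12 were called higher in histone-high cells and 0 lower, where 0.389% and 0.405% of all 12607 genes were called higher and lower by edgeR. The groups were sorted by histone and mitosis UMIs of the same cells, so these calls are no independent support. The median log2 difference was 1.23 against 0.00 over all genes. The count was 25 with the library as a block and 22 with DESeq2, and no member was called lower by either. Over all genes the library block called 6.92% higher and 7.46% lower, and DESeq2 1.19% and 1.47%. The values of 26 members lay wholly above those of mitosis-high cells and 5 overlapped, where 17.0% of all genes lay wholly above and 19.3% wholly below.

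All 3 G1/S control genes were called higher. *Ccne2* stood at 39.6 and 47.6 CPM in histone-high and 2.61 and 4.27 CPM in mitosis-high cells, a log2 difference of 3.68 ± 0.42 (edgeR adjusted p = 0.0264). *Ccne1* had 42.9 and 42.3 against 6.30 and 8.21 CPM (2.56 ± 0.16, edgeR adjusted p = 0.00982), and *E2f1* had 50.7 and 48.9 against 17.5 and 22.6 CPM (1.32, edgeR adjusted p = 0.0274). In mitosis-high cells the *Ccne1* and *Ccne2* values were below those of neither set, at 9.40 and 8.98 CPM and 5.14 and 4.44 CPM.

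Of the 8 licensing genes 5 were called higher without and 8 with the block. *Cdc6* had the largest gap, with 21.01 and 25.7 CPM in histone-high and 2.54 and 4.36 CPM in mitosis-high cells (log2 difference 2.78 ± 0.29, edgeR adjusted p = 0.0225). *Mcm3* (1.50), *Mcm6* (1.30), *Mcm2* (1.27) and *Mcm4* (1.18) were the other 4. The uncalled *Mcm5* was at 85.8 and 67.3 against 40.1 and 40.5 CPM, *Mcm7* at 91.9 and 72.1 against 40.3 and 46.7 CPM and *Cdt1*, the partner of *Cdc6* in loading, at 20.7 and 23.8 against 8.42 and 8.46 CPM. None of the 8 overlapped between the groups. The remaining calls were *Chaf1b* (1.80), *Slbp* (1.68), the flap endonuclease *Fen1* (1.34) and *Atad2* (1.27), a bromodomain ATPase of replicating chromatin.

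Among the 5 nucleotide genes none was called, and *Rrm2* was called with the block. *Rrm1* stood at 239 and 138 CPM in histone-high and 215 and 191 CPM in mitosis-high cells. *Tyms*, thymidylate synthase, stood at 133 and 92.7 against 122 and 126 CPM, and *Tk1* at 99.7 and 46.2 against 86.4 and 79.2 CPM. For these 3 genes the groups overlapped, and the sign was positive in replicate 1 and negative in replicate 2. The 31 members were all higher in histone-high cells in replicate 1, and 27 were in replicate 2. No share over all genes is given for these counts. For the 3 fork protection, cohesion and repair genes none was called, and all 3 were with the block. Their sum was 256 and 163 CPM against 85.3 and 77.1 CPM.

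Among the 5 synthesis genes, *Fen1* was called, and the others except *Pola1* were called with the block. *Pcna*, the sliding clamp of the polymerases, stood at 67.7 and 68.7 CPM in histone-high, 25.9 and 35.4 CPM in mitosis-high and 13.8 and 14.1 CPM in neither (1.16 ± 0.21 against mitosis-high, edgeR adjusted p = 0.0913 without and 0.000461 with the block). *Lig1*, DNA ligase 1, had 149.9 and 73.6 CPM in histone-high and 83.8 and 64.3 CPM in mitosis-high cells, and these overlapped. *Pola1*, the catalytic subunit of polymerase alpha, had 41.6 and 31.8 against 27.8 and 28.2 CPM (0.40 ± 0.16), a small gap without overlap, and was not called. Of the 2 helicase activation genes, *Cdc45* was called with the block (33.9 and 25.7 against 12.7 and 12.8 CPM) and *Gins2* was not (95.0 and 60.8 against 77.3 and 67.2 CPM), whose groups overlapped. Both chromatin genes left uncalled, *Chaf1a* and *Uhrf1*, were called with the block (0.88 and 1.03).

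Cells in both sets, which are rich in histone and mitosis UMIs at once, differed from histone-high cells in a way that depended on the library. Of the 31 members, 14 were higher in both sets than in histone-high cells in replicate 1 and 27 in replicate 2. No share over all genes is given for these counts, so they are not read as particular to the members. The histone-high cells themselves differed between the libraries in mitosis and histone UMIs. Their values lay wholly above those of histone-high cells for 12 members, wholly below for 4, and overlapped for 15, where 18.4% and 12.8% of all genes lay wholly above and below. The 4 lower genes were *Cdc6* (10.3 and 13.1 against 21.01 and 25.7 CPM), *Cdt1* (10.8 and 12.7 against 20.7 and 23.8 CPM), *Ccne2* (16.4 and 35.3 against 39.6 and 47.6 CPM) and *Uhrf1*, which reads hemimethylated DNA (56.2 and 68.0 against 73.0 and 68.6 CPM). *Mcm5* and *Mcm6* lay wholly above, *Mcm6* at 106.5 and 125 CPM in both sets and 104 and 102 CPM in histone-high cells. The other 4 MCM genes changed order between the libraries, as *Mcm3* did with 110.04 and 129.9 CPM in both sets against 139 and 122 CPM in histone-high cells. The summed licensing level was likewise lower in both sets in replicate 1 (553 against 617 CPM) and higher in replicate 2 (631 against 560 CPM). These levels are a description with no test.

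The share of a member's UMIs that fell into each set gives the same groups in another form. The histone-rich set held 21.65% and 23.25% of all UMIs of Myh11-low cells and the mitosis-rich set 24.98% and 25.18%. Over the 31 members, the histone-rich set held a median of 54.1% and 59.8% of their UMIs, and the mitosis-rich set 38.5% and 53.6%. More UMIs lay in the histone-rich set for 27 and 24 of 31 members, for 8 of 8 licensing genes in both libraries, and for 2 and 1 of 5 nucleotide genes.

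Among the 31 members other than histones the most concentrated was *Esco2*, with 76.2% and 83.1% of its UMIs in the histone-rich set. *Cdc6* had 57.8% and 63.6% there and 19.2% and 31.6% in the mitosis-rich set, and *Ccne2* had 65.4% and 73.8% against 16.5% and 38.3%. *Tk1* had more in the mitosis-rich set, with 57.6% and 77.6% against 55.4% and 63.6%. Cells in both sets count in both shares. Ranked by raw UMI counts, the 10% of Myh11-low cells with the most histone UMIs held 81.4% and 78.7% of the histone UMIs. The 10% with the most licensing UMIs held 48.8% and 51.9% of the licensing UMIs. By these raw counts, which are larger in deep cells, licensing UMIs were spread over more cells.

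**Figure D4:**
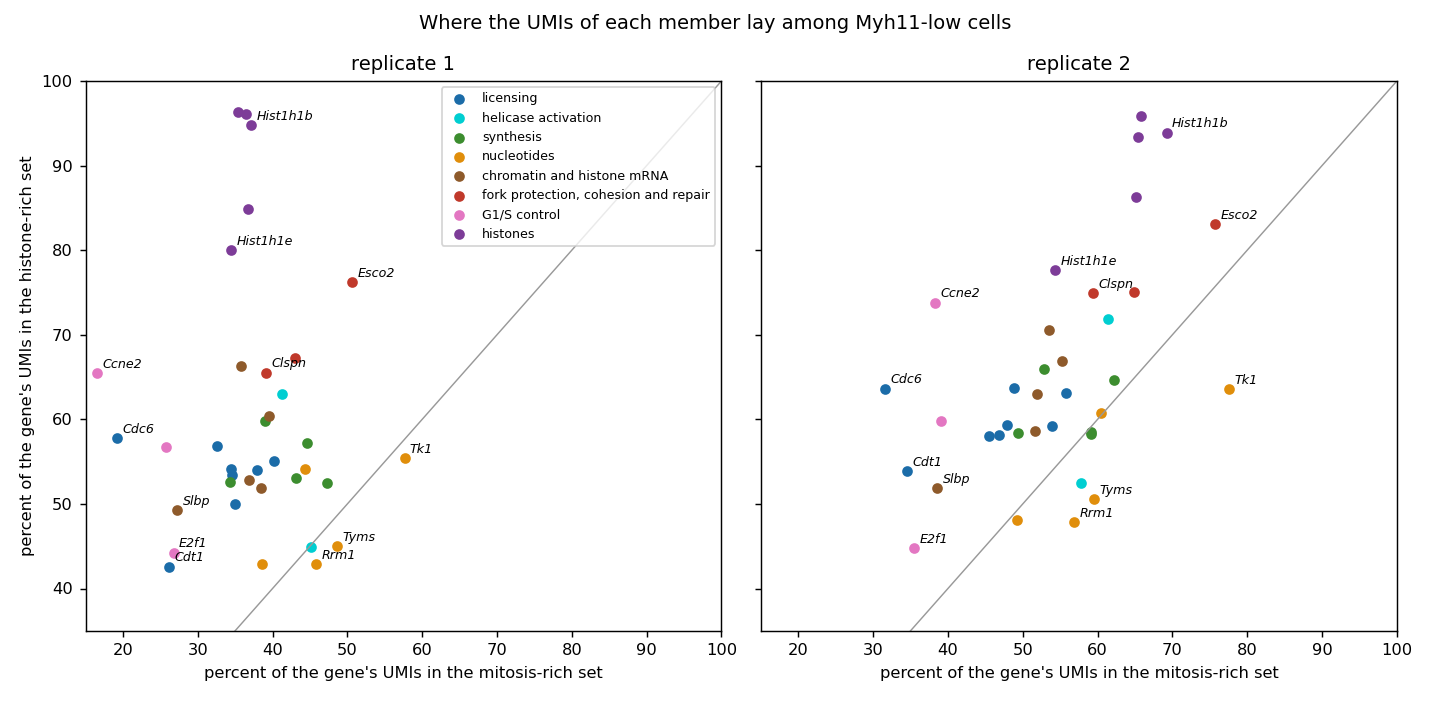
Percent of each member's Myh11-low UMIs in the mitosis-rich set (x axis) and in the histone-rich set (y axis), coloured by role, with 1 panel per replicate and a line where both are equal. All 8 licensing and 3 G1/S control genes lie above the line in both replicates, and *Tk1*, *Rrm1*, *Tyms* and, narrowly in replicate 1, *Gins2* lie below it. In replicate 2 *Pola1*, *Lig1* and *Dut* lie below it too.

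The ratio of summed licensing to summed histone CPM compares both ends of the pathway within a library. It was 1.08 and 0.8503 in Myh11-low, 1.27 and 1.09 in Myh11-high and 1.08 and 1.18 in endothelial cells. On the log2 scale Myh11-low minus Myh11-high was -0.23 and -0.35 (mean -0.29, SD 0.09, n = 2), lower in both libraries. Endothelial minus Myh11-low was -0.01 and 0.48 (mean 0.23, SD 0.34), which is smaller than the spread between libraries. With 2 libraries no permutation test can reach 0.05, and none was run. In the groups of Myh11-low cells the ratio was 0.670 and 0.825 in histone-high, 0.573 and 0.460 in both, 7.24 and 5.12 in mitosis-high and 5.50 and 2.81 in neither, where the histone part is set by how the groups were made.

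**Figure D5:**
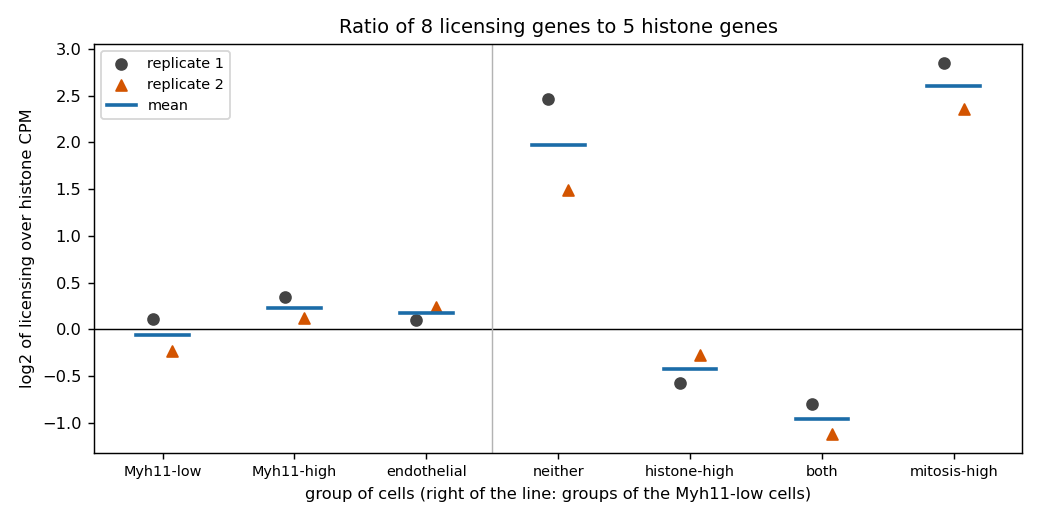
Log2 of the ratio of summed licensing CPM to summed histone CPM (y axis) in the 3 classes and in the 4 groups of Myh11-low cells, with 1 point per library and a line at the mean. As ratios, the classes lie between 0.8503 and 1.27, and the groups, whose histone level was used to make them, lie between 0.460 and 7.24.

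Other genes of the pathway were taken from lists, with log2 differences in parentheses for those named. Between the groups of Myh11-low cells, the counts follow in part from how the cells were sorted, as for the members. In histone-high against neither, 33 of 44 further replication genes were higher, where 3.97% of all genes were called higher. They were led by *Mcm10* (3.42) and the origin firing factor *Ticrr* (3.36). Of 12 E2F and RB family genes 5 were higher, led by the E2F repressors *E2f8* (4.28) and *E2f7* (3.47). Of 11 variant histone genes with polyadenylated mRNA 2 were higher, *H2afx* (1.76) and *H2afz* (1.10). *H2afx* transcripts hold 60-base stretches from the last 500 bases of *Hist1h2ap* and *Hist1h2ae*, which helped to choose the cells. Where in *H2afx* these stretches lie was not examined. Some of the 62 other replication-dependent histone genes, such as *Hist1h2ai* and *Hist1h2ab*, are near-copies of these score genes, and no call is given for that list. *Hist1h2bc*, named after its values were seen, stood at 59.7 and 106 CPM in histone-high and 97.2 and 157 CPM in neither, lower in each library but overlapping between them (-0.65 ± 0.35). Some other genes of that list went the other way, such as *Hist1h4d* (2.45 ± 0.21), *Hist1h1d* (2.42 ± 0.78) and *Hist1h1c* (0.35 ± 0.29). *Hist1h2bc* was not alone, as *Hist3h2a*, *Hist2h3c1* and *Hist2h3c2* also had a smaller share of their UMIs in the histone-rich set than all UMIs had, in both libraries.

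Against mitosis-high cells, 6 of the 44 replication genes were higher in histone-high cells, where 0.389% of all genes were called higher. They were led by the fork protein *Wdhd1* (2.24) and the clamp loader subunit *Rfc3* (1.41). The centromeric variant *Cenpa* (-3.55) and *H2afz* (-0.94) were lower. In endothelial against Myh11-low cells, 9.73% of all genes were called higher and 6.52% lower. The polymerase delta subunit *Pold3* was the only one of the 44 replication genes called higher, and none was called lower. It stood at 30.1 and 29.7 against 12.7 and 13.0 CPM (1.12). Among the 11 variant histones only *H1f0* was called higher (1.03) and only *H2afy2* lower (-1.41).

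The libraries differed for some members more than the classes did. For *Hist1h2ap* the log2 ratio of replicate 2 to replicate 1 was -1.10 in Myh11-low cells (44.4 and 20.5 CPM) and -1.78 in histone-high cells (198 and 57.3 CPM). For *Hist1h1b* it was 0.60 in Myh11-low cells. Over all members, 14 were higher and 22 lower in replicate 2 in Myh11-low cells, 31 and 5 in Myh11-high, and 6 and 30 in histone-high cells. The same counts over all genes are not given, so a shift particular to the members cannot be read from them. Some histone counts are uncertain because near-identical genes share sequence. Of the 60-base stretches in the last 500 bases of their transcripts, 92.9% of those of *Hist1h2ap*, 99.1% of *Hist1h1e*, which *Hist1h2be* overlaps on the same strand, 52.8% of *Hist1h2ae* and 19.6% of *Pcna*, with its copy *Pcna-ps2*, occurred in another gene. *Cdt1* lies within *Gm20388* on the same strand. The counts of these 5 members are therefore uncertain.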

How the data were processed

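CellRanger was used by the authors to align the 10x Genomics 3′ reads to mm10, and the deposited values are raw UMI counts of every barcode, empty droplets included. Version 3.0.2 is named by the submitters' processing notes and by the file header of replicate 1, and 3.1.0 by that of replicate 2. The members, the lists and the tests were chosen with earlier results of these data known. Here counts were summed per library and class, or per library and group of Myh11-low cells, and tested with edgeR 4.0.16 (R 4.3.3; quasi-likelihood, TMM, filterByExpr, Benjamini-Hochberg over all genes, threshold 0.05). The 6 class sums formed 1 fit and the 8 group sums another. P-values of the main fits measure the spread between 2 libraries. Those with the library as a block measure the spread left after the difference between the libraries is taken out. SE is the log2 difference over the square root of F. Sums of a library come from 1 culture, so the replicate numbers pair them, and their deviations correlated at 0.302 to 0.655 in the classes and 0.667 to 0.814 in the groups. The fit with this block and DESeq2 1.42.0 were alternatives, beside other filters, thresholds, normalisations, thinning to 3000 UMIs and removal of the top 5% of cells by UMIs. Doublets were kept and no caller was run. The free-RNA profile is that of barcodes holding 1 to 100 UMIs. All 36 members are named, and of each list the 2 called genes with the largest log2 difference in each direction, except the other replication-dependent histones. Some of these are near-copies of genes that define the groups. Of 31053 gene identifiers 30934 matched the GENCODE annotation of GRCm38. In simulated data without a library effect, the fits recovered 80% (Myh11-low against Myh11-high) and 55% (endothelial) of changes of 1 on the log2 scale. For histone-high cells they recovered 69% (against neither) and 75% (against mitosis-high). The simulation gave every gene the same spread, so recovery may be lower for members with a larger SE. Smaller changes were not simulated.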

Additional observations from a re-analysis of the deposited data

How the results depend on the processing

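Calls rest on 2 libraries, and histone counts on the part of histone mRNA that oligo(dT) captures. With the library number as a replicate block, which the pairing of sums allows, genes called rose from 299 to 2151 (Myh11-low against Myh11-high), 2148 to 4118 (endothelial), 506 to 2193 (histone-high against neither) and 100 to 1812 (against mitosis-high). Members called went from 3 to 7 and from 12 to 25 in the endothelial and mitosis-high comparisons, and the calls of no other comparison of the members changed. Without a filter on low counts 68 and 1384 genes were called in the first 2 comparisons, with DESeq2 1160 in the first and 335 genes and 22 members against mitosis-high, and after thinning 272 against neither and 42 against mitosis-high. The median share of cells with a UMI, as the mean of the libraries, was 27.0%, 36.2% and 19.7% in Myh11-low, Myh11-high and endothelial cells and 6.76%, 7.95% and 5.68% after thinning. With 1 library these shares were 24.6% to 29.3%, 34.1% to 38.3% and 16.3% to 23.0%, and the log2 ratio differences were -0.35 to -0.23 (Myh11-low minus Myh11-high) and -0.01 to 0.48 (endothelial minus Myh11-low). After thinning 9 members were called against mitosis-high, where *Fen1*, *Chaf1b* and *E2f1* lost the call. With the highest 10% *Fen1* and *Atad2* lost it, but other members gained it, so that 12 were called. In endothelial cells *Rrm1* lost it without the filter, where 2 members were called. *Rrm2* lost it after thinning, but other members gained it, so that 4 were called. The count was also 4 with DESeq2 and with at least 3 of the 4 endothelial genes required. No called member changed sign. Between Myh11-low and Myh11-high cells the sign turned after thinning for *Lig1* (0.096) and *Hist1h1b* (-0.14), without the top cells by UMIs for *Hist1h1b* (-0.00418), without TMM for *Rrm1* (0.042), *Rrm2* (0.038), *Slbp* (0.019), *Atad2* (0.026) and *Hist1h2ap* (0.023), and with *Myh11* thresholds scaled to depth for *Lig1* (0.043), *Rrm1* (0.16), *Rrm2* (0.092), *Atad2* (0.038) and *Hist1h2ap* (0.023). In endothelial cells it turned after thinning for *Mcm5* (-0.018), *Cdc6* (0.023) and *Pola1* (-0.75). Against mitosis-high cells it turned after thinning for *Gins2* (-0.050) and *Pola1* (-0.014), with the highest 10% in place of 25% for *Rrm1* (0.17), *Tyms* (0.24) and *Tk1* (0.32), and without *Hist1h1e* in the score for *Rrm1* (0.066), *Tyms* (0.032) and *Tk1* (0.030). The cause was not tested.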
